A study of Homo sapiens with 12 samples.

Results

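The late response to loss of BRG1 was examined in LNCaP cells, an androgen-responsive line grown from a lymph node metastasis of a prostate cancer. The 6 libraries collected at 144 h, of 12 libraries in the series, were used: 2 of cells given a non-targeting siRNA pool (si-NT) and 4 of cells given an siRNA against SMARCA4, the gene of BRG1. The depleted libraries are 2 replicates of each of 2 siRNAs, which the deposited table numbers 2 and 3. All cells were transfected, split and transfected again at 72 h, so the si-NT cells carried the same handling, and an siRNA lowers its target without deleting it. The labels do not say whether replicates 1 and 2 came from separate cultures, so the p-values measure the spread between these libraries, which may be technical. The other 6 libraries, of 72 h, entered the fit and served for comparison.

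BRG1 is one of the alternative ATPases of the SWI/SNF complexes, which slide and evict nucleosomes at promoters and enhancers. Active enhancers of prostate epithelium depend on such remodelling together with the lineage factors that bind there. Growing cells express the genes of DNA replication, mitosis and ribosome assembly at high levels, whereas cells that leave the cycle tend to lower them.

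SMARCA4 (ENSG00000127616.13, chromosome 19, 11071608 to 11190102, forward strand, on GRCh37 as all gene positions here) was at 94.5 and 107 TPM (the length-corrected share of a library) in the si-NT libraries. It was at 15.9 and 16.2 TPM with siRNA 2 and at 11.4 and 17.4 TPM with siRNA 3. Every depleted library was thus below both si-NT libraries, and the log2 fold change was -2.66 (limma's adjusted p = 1.01e-05, standard error 0.16), at similar size with siRNA 2 (-2.57) and siRNA 3 (-2.74). The 9 defining LNCaP markers summed to between 2052 and 2833 TPM in the 6 libraries. Markers of other cell types were near 0: the 3 basal markers summed to at most 0.33 TPM, the 3 leukocyte markers to at most 0.78 TPM, and of the 5 fibroblast markers COL1A1 alone exceeded 1 TPM. ERCC spike-in RNA, which was added to a fixed mass of total RNA, took 0.805% and 1.336% of the si-NT libraries and between 1.044% and 1.966% of the depleted ones.

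Of 16337 genes tested, 114 were up-regulated and 66 down-regulated at 144 h, with a log2 fold change beyond 1.5 and an adjusted p under 0.05 (limma on log2(TPM + 1), Benjamini-Hochberg). These are 0.698% and 0.404% of the genes tested. In each of these genes every depleted library lay beyond both si-NT libraries. Without the fold limit, 2222 genes (13.6%) were higher and 1761 (10.8%) lower, and these shares serve below as the background for the gene lists. The up-regulated genes started low, at a median of 3.75 TPM in si-NT cells, and 24 of them were under 1 TPM there. The down-regulated genes were expressed in si-NT cells at a median of 15.5 TPM and fell to a median of 2.61 TPM. A fall past the limit needs a start above 1 TPM on this scale, so the comparison of these levels is in part set by the rule. The median over all genes tested was 11.2 TPM.

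TPM is a share of each library and cannot show a change in total RNA. After rescaling of TPM to the ERCC spike-ins, the median change over all genes went from 0.03 to -0.31 (log2), and the split turned to 56 up-regulated and 168 down-regulated genes. Up-regulated genes were then 25.0% of the calls in place of 63.3%. On that scale all 66 down-regulated genes were still called, and all 114 up-regulated genes were still above si-NT, 54 of them past the limit of 1.5. The study, whose methods normalise read counts with the spike-ins and use a count-based test, reported more down-regulated than up-regulated genes at 144 h. Spike-ins added to a fixed mass of RNA do not measure RNA per cell, and in bulk samples fewer cells of a type and less RNA per cell cannot be told apart.

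**Figure D1:**
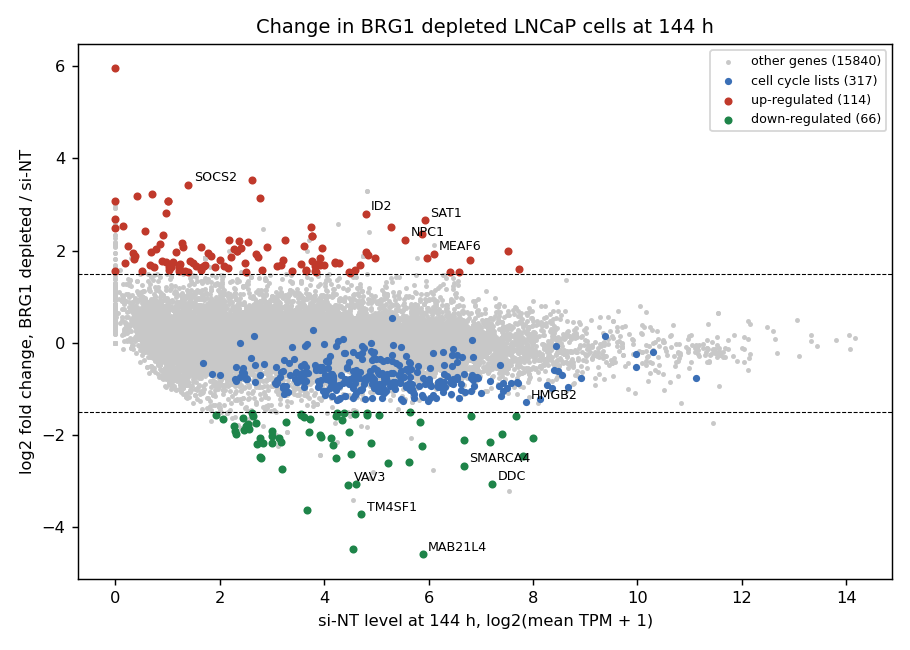
Each point is 1 gene, with the si-NT level at 144 h as log2(mean TPM + 1) on the horizontal axis and the log2 fold change of BRG1 depleted over si-NT cells on the vertical axis, where dashed lines mark the limit of 1.5. The cell cycle genes (blue) form a band that ends at -1.29, above the 66 down-regulated genes (green).

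Cell cycle genes fell widely but by less than the limit. Of 317 tested genes in 3 cell cycle lists (S phase, G2 and M phase, and other cell cycle and DNA replication genes), 233 (73.5%, against 10.8% of all genes) were lower at an adjusted p under 0.05 and 1 was higher. Their median log2 fold change was -0.76 and the lowest, of the chromatin protein HMGB2, was -1.29, so 0 of the 66 down-regulated genes came from these lists. On the ERCC scale 25 of the 168 did. At a limit of 1, 48 of 254 lower genes were cell cycle genes. The replication licensing factor CDC6 was at 39.7 and 49.6 TPM in si-NT cells and at 20.2, 20.7, 19.4 and 12.7 TPM in depleted cells (log2 fold change -1.26, adjusted p = 0.0018). MCM2, a subunit of the replicative helicase, changed by -1.10, the mitotic cyclin CCNB2 by -1.20 and the thymidine kinase TK1 by -1.22. The counts in these lists depended on both controls: of 31 lower S phase genes 6 passed without si-NT replicate 1 and 3 without si-NT replicate 2, while the list's median stayed between -0.68 and -0.90 over the fits with 1 library left out. For the G2 and M phase list, 45 of 54 genes were lower, 20 without si-NT replicate 1 and 9 without si-NT replicate 2, with medians between -0.78 and -0.96. Among the other cell cycle genes, 160 of 224 were lower, and 59 and 10 without these libraries.

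The largest rises included SOCS2, NBL1 and ID2. SOCS2 (chromosome 12, 93963590 to 93977263), a feedback inhibitor of growth hormone and JAK-STAT signalling, was at 1.65 and 1.63 TPM in si-NT cells and at 24.2, 32.1, 30.9 and 23.5 TPM in depleted cells. Its mean rose 16.9-fold (log2 fold change 3.43, standard error 0.21, adjusted p = 1.01e-05), by 3.45 with siRNA 2 and by 3.41 with siRNA 3. The antisense gene SOCS2-AS1 went from 0.18 and 0.02 TPM to 5.33, 7.51, 5.37 and 3.81 TPM. NBL1, a secreted antagonist of bone morphogenetic proteins, was at 0.72 and 0.53 TPM in si-NT cells and at 13.1, 15.4, 11.98 and 16.3 TPM in depleted cells (log2 fold change 3.22, adjusted p = 1.01e-05). A readthrough gene overlaps NBL1, so the split of reads between them is uncertain. ID2 binds and blocks basic helix-loop-helix factors and is a target of bone morphogenetic proteins. It was at 22.0 and 31.3 TPM and then at 165, 115, 181 and 368 TPM (log2 fold change 2.80, adjusted p = 0.00236). The depleted libraries of ID2 spread widely, and the lowest of them was above both si-NT libraries.

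SAT1, the rate-limiting enzyme of polyamine breakdown, was the most abundant of the 12 largest rises after depletion. It was at 64.8 and 54.8 TPM in si-NT cells and at 459, 325, 330 and 425 TPM in depleted cells, a 6.43-fold rise of the mean (log2 fold change 2.65, adjusted p = 1.61e-05). ODC1, the rate-limiting enzyme of polyamine synthesis, moved the other way, from 261 and 281 TPM to 92.6, 102, 140 and 110 TPM (log2 fold change -1.29, adjusted p = 0.00113). PRSS22, a serine protease of epithelia, rose from 0.32 and 0.36 TPM to 13.4, 10.6, 8.57 and 12.5 TPM. Of the noncoding genes, NUDT19-DT rose from 6.38 and 5.30 TPM to 103, 69.6, 40.6 and 42.2 TPM, and SSTR5-AS1 from 1.14 and 0.76 TPM to 14.9, 8.27, 11.9 and 17.2 TPM. The rises of SAT1, PRSS22, NUDT19-DT and SSTR5-AS1 kept an adjusted p under 0.05 in every alternative fit in which the gene was tested, as did those of SOCS2, NBL1 and ID2.

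Small RNAs also reached the limit, and their values are uncertain. The kit selects polyadenylated RNA, which these RNAs mostly lack, and division by their short length turns few reads into large TPM. RNU5B-1, a spliceosomal U5 gene with near-identical copies, was listed at 0 in both si-NT libraries and at 29.8, 41.5, 188 and 57.7 TPM in depleted cells. RNU4ATAC and RNU6ATAC, of the minor spliceosome, were at 9.43, 5.25, 12.7 and 4.49 TPM and at 14.6, 10.9, 43.1 and 4.67 TPM in depleted cells. RNU4ATAC was listed at 0 in both si-NT libraries and RNU6ATAC in 1 of them. SNORD10 was listed at 0 in si-NT cells and reached 3.54, 7.04, 9.29 and 3.65 TPM. SNORD83B and SNORD67 did the reverse, at 15.3 and 29.4 TPM and at 8.23 and 15.3 TPM in si-NT cells and listed at 0 in all 4 depleted libraries. RNU5B-1 and RNU4ATAC lost their call (adjusted p under 0.05) without either si-NT library, RNU6ATAC lost its call without si-NT replicate 2, and SNORD83B lost its call whichever 1 of the 6 libraries was left out. SNORD67, SNORD83B and RNU6ATAC lost it when si-NT libraries of both times were combined, and RNU4ATAC and SNORD83B with no filter on low values. Of 110 snoRNA genes tested, 1 was higher and 4 were lower. Among the called genes, 6 gene identifiers held the same values as another one and so are not separate measurements.

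**Figure D2:**
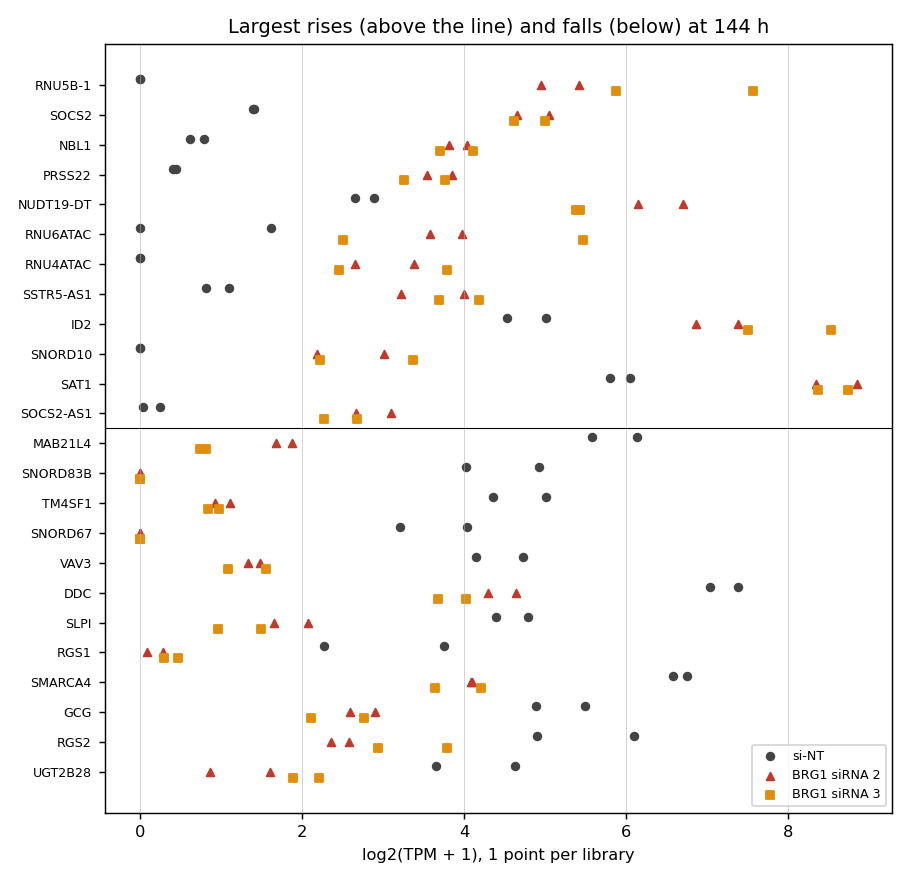
The 12 largest rises and 12 largest falls (named genes called at 144 h) are shown as log2(TPM + 1) with 1 point for each library: circles for si-NT, triangles for siRNA 2 and squares for siRNA 3. In every gene the 4 depleted points lie on 1 side of both si-NT points, and SNORD83B and SNORD67 are listed at 0 in all depleted libraries.

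Some histone genes rose. Of 15 tested histone genes known to yield polyadenylated or linker transcripts, 8 (53.3%, against 13.6% of all genes) were higher and 1, H2AZ2, was lower. The median log2 fold change was 0.95, with 9 changes above 0 and 6 below. H2AC6 was at 10.2 and 6.66 TPM in si-NT cells and at 46.8, 46.6, 38.2 and 38.1 TPM in depleted cells (log2 fold change 2.22, adjusted p = 6.4e-05). H2BC21 changed by 2.00, H2BC4 by 1.79 and H2BC12 by 1.48, and the median was 1.26 with siRNA 2 and 0.64 with siRNA 3. Histone genes have near-identical copies, so reads may be shared among them. Without si-NT replicate 2, 4 of the 8 passed, and on the ERCC scale 3 did.

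Genes of the lysosome and of autophagy, the routes by which cells digest their own material, rose widely. Of 51 tested, 27 (52.9%) were higher and 1 was lower, with a median of 0.46. NPC1, which exports cholesterol from the lysosome, was at 41.7 and 49.9 TPM in si-NT cells and at 260, 218, 194 and 206 TPM in depleted cells (log2 fold change 2.23, adjusted p = 1.01e-05). The acid ceramidase ASAH1 changed by 0.84, the proton pump subunit ATP6V1D by 0.93 and the sialidase NEU1 by 1.21, whereas the galactosidase GLA fell by 0.69. The count was 13 without si-NT replicate 1 and 12 without si-NT replicate 2, at medians of 0.45 and 0.46. On the ERCC scale 1 gene was higher and the list's median was 0.07, against -0.31 for all genes.

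In 4 further lists more genes were higher than lower. Of 27 genes of FOXO factors and quiescence, 8 were higher, among them YPEL3 (1.49), YPEL5 (0.93), CITED2 (0.65) and TOB1 (0.51), and BCL6, a repressor, was lower (-1.44). Of 35 genes of fatty acid oxidation and the peroxisome, 11 were higher and 4 lower. HSD17B4, catalase (CAT) and the carnitine carrier SLC25A20 changed by 0.79, 0.56 and 0.73, and HADH by -0.74. Of 29 genes of the TGF-beta and BMP pathways, 8 were higher, with ID4 (1.49) and GDF11 (0.77) beside NBL1 and ID2, and BMP6 (-0.63) and the receptor BMPR1B (-0.95) were lower. Of 25 JAK-STAT genes, 3 were higher, a share near the background: SOCS2, the receptor subunit IL6ST (0.56) and the survival factor BCL2L1 (0.94). Without si-NT replicate 2 the counts of higher genes in these 4 lists were 2, 4, 3 and 2, and on the ERCC scale they were 1, 0, 2 and 1. TOB1, CITED2, ID4 and IL6ST were among the genes that did not pass without si-NT replicate 2, and BMP6, BMPR1B, TOB1 and ID4 among those that did not without replicate 1.

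BMF and BIK, which promote apoptosis by binding BCL2 proteins, were chosen after their values were seen. BMF was at 3.80 and 3.26 TPM in si-NT cells and at 19.7, 13.8, 23.8 and 25.1 TPM in depleted cells (log2 fold change 2.22, adjusted p = 0.000162). BIK was at 15.7 and 12.8 TPM and then at 41.0, 40.6, 49.1 and 63.0 TPM (log2 fold change 1.68, adjusted p = 0.00022). BCL2L1, which opposes apoptosis, rose as well, from 46.2 and 43.7 TPM to 88.0, 84.5, 84.3 and 92.3 TPM. On the ERCC scale BCL2L1 was not called, whereas BMF and BIK were.

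Genes of prostate epithelium moved in both directions. Of 48 genes known to be induced by androgen, 17 (35.4%) were higher and 3 lower, with a median of 0.33 that was 0.52 with siRNA 2 and 0.11 with siRNA 3. KLK4, a kallikrein protease, was at 240 and 125 TPM in si-NT cells and at 704, 916, 624 and 575 TPM in depleted cells (log2 fold change 1.99, adjusted p = 0.00129). The secreted acid phosphatase ACP3 changed by 1.92, the vesicle GTPase RAB3B and the methyltransferase GNMT by 1.57 each, and the ETS factor SPDEF by 0.93. PMEPA1 was at 22.5 and 12.4 TPM and then at 72.0, 103, 46.6 and 34.1 TPM (adjusted p = 0.00598). Another kallikrein, KLK2, was at 341 and 143 TPM in si-NT cells and at 83.2, 124, 115 and 75.1 TPM in depleted cells, a change that did not pass (log2 fold change -1.18, adjusted p = 0.0937). In KLK2, KLK3, KLK4 and PMEPA1, si-NT replicate 1 was well above replicate 2, and the count of higher genes was 15 without the first and 8 without the second. PMEPA1 did not pass without si-NT replicate 2. On the ERCC scale 4 of the 48 genes were higher, and the median was -0.04.

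Of 21 tested genes in a list of genes taken as repressed by androgen, 8 were lower and 4 higher. DDC, which makes dopamine and serotonin from their precursors, was at 130 and 165 TPM in si-NT cells and at 18.7, 23.9, 15.2 and 11.8 TPM in depleted cells (log2 fold change -3.05, adjusted p = 1.61e-05). BCHE changed by -1.81 and TMEFF2 by -2.22, whereas the opioid receptor gene OPRK1 rose from 0.53 and 0.43 TPM to 5.49, 5.35, 8.76 and 8.80 TPM. Of 19 luminal transcription factors, 6 were higher, among them SOX9 (1.29) and ELF3 (1.09, not called without either si-NT library), and 3 were lower. EHF, an ETS factor of epithelia, had the largest fall of these, from 189 and 149 TPM to 54.8, 53.5, 43.8 and 23.5 TPM (log2 fold change -1.98, adjusted p = 0.00129). Of 37 junction and keratin genes, 11 were higher, with the junction scaffold CGN at 1.43 and E-cadherin (CDH1) at 0.91, and 3 were lower. Of 25 mesenchymal and matrix genes, 8 were higher, led by THBS1 at 2.33, TAGLN at 1.46 and COL6A2 at 1.46. In that list 1 gene, MMP16, was lower (-0.835, not called with no filter on low values). Its median was 0.11, with 14 changes above 0 and 11 below. Without si-NT replicates 1 and 2 in turn, the higher genes numbered 1 and 1 of the androgen-repressed list, 2 and 2 of the luminal factors, 8 and 6 of the junction genes and 7 and 4 of the mesenchymal genes, and on the ERCC scale they numbered 1, 0, 0 and 2. The lower genes of the androgen-repressed list numbered 7 and 6 without these libraries and 9 on the ERCC scale. The neuroendocrine genes CHGA and INSM1 stayed at or below 0.06 TPM in all 6 libraries, and SYP went from 0.48 and 0.39 TPM to between 1.18 and 1.36 TPM (not called without si-NT replicate 2).

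The down-regulated genes were led by single genes of several functions. MAB21L4 (chromosome 2, 241825465 to 241836306) had the largest fall, from 69.4 and 46.8 TPM in si-NT cells to 2.20, 2.65, 0.75 and 0.66 TPM in depleted cells (log2 fold change -4.59, standard error 0.40, adjusted p = 5.02e-05). TM4SF1, a membrane protein of the tetraspanin-like family, was at 31.1 and 19.4 TPM and then at 1.15, 0.90, 0.79 and 0.96 TPM, a mean change of -96.2%. VAV3, an exchange factor for small GTPases, was at 16.6 and 25.5 TPM and then at 1.78, 1.51, 1.93 and 1.11 TPM (log2 fold change -3.07, adjusted p = 1.43e-05). In each of these genes all depleted libraries were far below both si-NT libraries. The protease inhibitor SLPI went from 26.6 and 20.0 TPM to 3.18, 2.14, 0.94 and 1.80 TPM. The proglucagon gene GCG went from 28.5 and 43.9 TPM to 5.02, 6.47, 3.31 and 5.80 TPM. RGS1 and RGS2, regulators of G protein signalling, both fell, RGS1 from 3.81 and 12.4 TPM to at most 0.38 TPM and RGS2 from 28.8 and 67.2 TPM to 4.97, 4.10, 6.65 and 12.7 TPM. In RGS1 and RGS2 the si-NT libraries differed widely, with replicate 2 the higher.

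Steroid and drug metabolism held 10 lower and 7 higher genes of 28. UGT2B enzymes, which conjugate androgens for removal, made up the large falls: UGT2B17 went from 80.4 and 123 TPM to 30.5, 18.1, 22.6 and 20.3 TPM (log2 fold change -2.10, adjusted p = 0.000101), UGT2B28 changed by -2.50, UGT2B11 by -2.16 and UGT2B15 by -1.72. These paralogs are close in sequence, so reads may be shared among them, and UGT2B28, UGT2B11 and UGT2B15 were not called without si-NT replicate 2, in which they were highest. The sulfotransferase SULT2B1 rose from 22.9 and 20.1 TPM to 54.1, 68.0, 59.5 and 72.5 TPM. Of 15 plasma protein genes, 4 were lower, with the coagulation inhibitor TFPI at -2.24 and albumin (ALB) at -2.16 (not called without si-NT replicate 2), and 2 were higher, with transthyretin (TTR) at 2.22. Of 32 interferon response genes, 7 were lower and 3 higher. IFITM1 was at 6.11 and 5.58 TPM in si-NT cells and at 0.00, 0.59, 0.29 and 0.10 TPM in depleted cells, and HERC6 changed by 0.73. Without si-NT replicate 1 the lower genes of these 3 lists numbered 8, 2 and 4, and without si-NT replicate 2 they numbered 5, 1 and 2.

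Broad and smaller falls were found in biosynthesis. Of 43 ribosome biogenesis genes, 30 (69.8%) were lower and 0 higher, with a median of -0.45 with either siRNA. NCL, a nucleolar protein, was at 905 and 902 TPM in si-NT cells and at 424, 474, 490 and 425 TPM in depleted cells (log2 fold change -0.997, adjusted p = 0.000161), and NPM1 and FBL changed by -0.94 and -0.64. Of 31 genes of MYC and nucleotide synthesis, 16 were lower and 2 higher. MYC itself went from 216 and 195 TPM to 89.2, 98.5, 99.8 and 88.9 TPM (log2 fold change -1.12, adjusted p = 3.86e-05), and its antagonist MXD4 changed by 0.78. Of 41 ATF4 target genes, which supply amino acids under stress, 20 were lower and 0 higher, with SHMT2 at -1.05, PHGDH at -0.90 and MTHFD2 at -1.05. Of 33 genes of hypoxia and glycolysis, 12 were lower, GAPDH among them at -0.60, and HK1 was higher at 0.83. Of 24 heat shock chaperone genes, 11 were lower, with the mitochondrial chaperonin HSPD1 at -0.84, and HSPB8 was higher at 1.23.

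These counts also fell when a control was left out. Ribosome biogenesis had 16 lower genes without si-NT replicate 1 and 12 without si-NT replicate 2, MYC and nucleotide synthesis 9 and 4, ATF4 targets 9 and 7, hypoxia and glycolysis 2 and 5, and heat shock chaperones 7 and 2. On the ERCC scale the 5 counts were 8, 4, 6, 6 and 2, while the medians were lower, at -0.85, -0.81, -0.84, -0.85 and -0.72 against -0.31 for all genes. GAPDH did not pass without si-NT replicate 1. The medians with any 1 library left out lay between -0.41 and -0.49 for ribosome biogenesis and between -0.40 and -0.51 for the ATF4 targets. The median for hypoxia and glycolysis was -0.23 without si-NT replicate 1 and -0.66 without si-NT replicate 2.

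**Figure D3:**
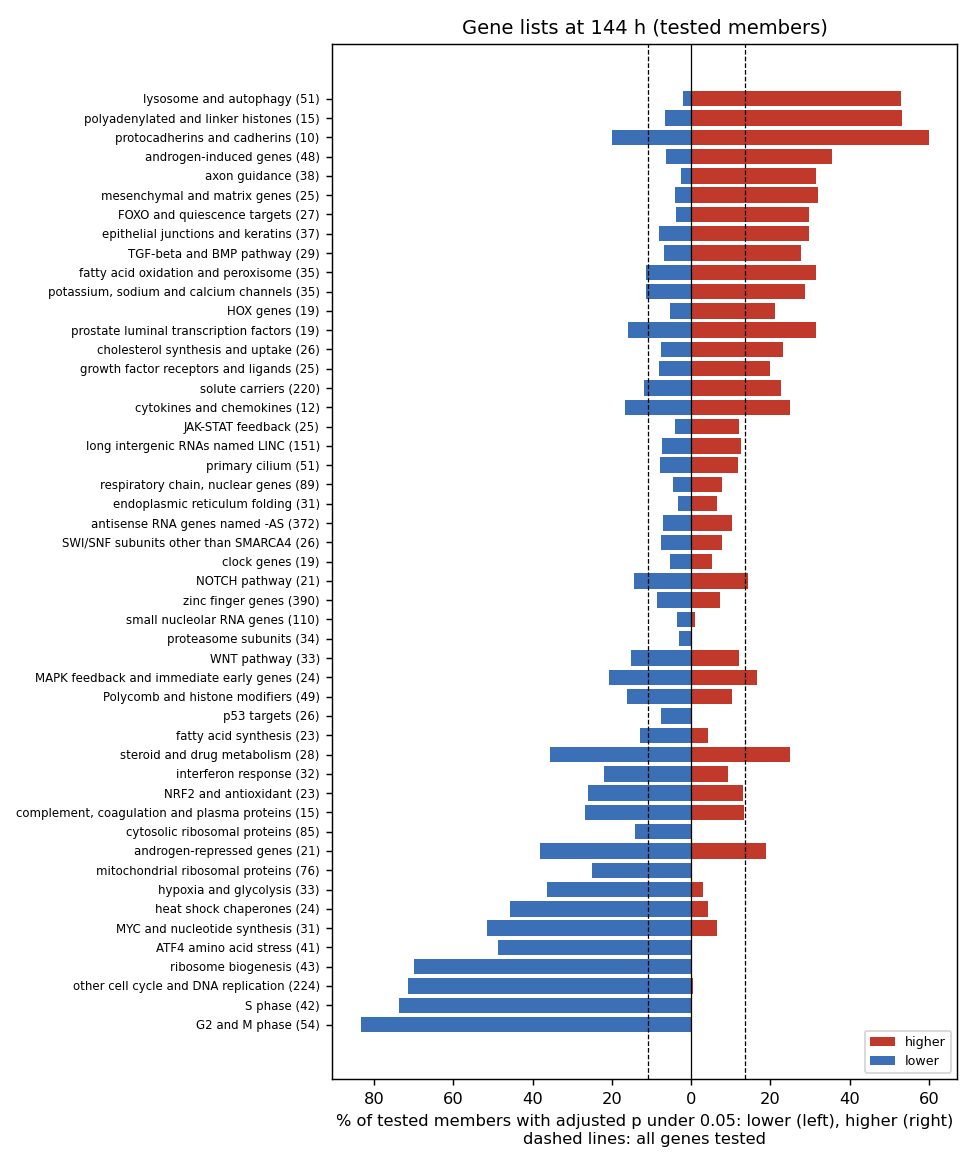
For each gene list described here with at least 10 tested members (number in brackets), bars give the percentage of tested members higher (right) or lower (left) at an adjusted p under 0.05, and dashed lines give the 13.6% and 10.8% of all genes. Lysosome and histone genes stand furthest to the right among lists with few lower genes, and the cell cycle lists and ribosome biogenesis furthest to the left.

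Ribosomal proteins, the parts of the finished ribosome, are encoded by a large set of genes that most growing cells express highly. Of 85 cytosolic ribosomal protein genes, 12 (14.1%) were lower and 0 higher, with a median of -0.18, and of 76 mitochondrial ones 19 (25.0%) were lower, with a median of -0.25. Without si-NT replicate 1 these counts were 2 and 6, and they were 0 and 0 without si-NT replicate 2 and on the ERCC scale. Of 89 respiratory chain genes 7 were higher and 4 lower, and of 34 proteasome genes 1 was lower. Of 26 other SWI/SNF subunit genes, 2 were higher and 2 lower (7.69% each, below both background shares). On the ERCC scale 0 were higher and 0 lower. SMARCA2, the alternative ATPase, changed by -0.65 (not called without si-NT replicate 1 or on the ERCC scale). The study reported no significant change in the other SWI/SNF subunits. Of 49 Polycomb and histone modifier genes, 5 were higher and 8 lower. Of 390 zinc finger genes 28 were higher and 34 lower, 11 and 7 without si-NT replicate 1 and 4 and 6 without si-NT replicate 2. Of 33 WNT pathway genes, 4 were higher and 5 lower, yet WNT4, a ligand, rose from 0.64 and 0.96 TPM to 6.5, 6.23, 5.86 and 9.60 TPM.

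Solute carriers, axon guidance and cadherins held larger shares of higher genes than the 13.6% of all genes. Of 220 solute carrier genes, 50 (22.7%) were higher and 26 (11.8%) lower, and 25 were higher without si-NT replicate 1 and 15 without si-NT replicate 2. Of 38 axon guidance genes, 12 (31.6%) were higher, with the ephrin receptor EPHA2 and the netrin receptor NEO1 (1.24) among them, and 1, EPHA3, was lower. Of 10 cadherin and protocadherin genes 6 were higher, with PCDH1 at 1.67, and 2 were lower, with CDH26 at -2.06. Without si-NT replicate 1 the higher genes of the axon guidance and cadherin lists numbered 7 and 5, and without si-NT replicate 2 they numbered 5 and 2. On the ERCC scale 1 gene was higher in each of the 3 lists.

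Members of the remaining lists are given by their counts of higher and lower genes. For growth factor receptors and ligands these were 5 and 2 of 25, with ERBB2 at 1.25, FGFR3 at 1.54 and the ligand EGF at -1.88. For MAPK feedback and immediate early genes they were 4 and 5 of 24, and for the NOTCH pathway 3 and 3 of 21. For the primary cilium they were 6 and 4 of 51, with BBS4 at 1.57. Cholesterol synthesis and uptake had 6 and 2 of 26, fatty acid synthesis 1 and 3 of 23, endoplasmic reticulum folding 2 and 1 of 31, and NRF2 and antioxidant genes 3 and 6 of 23. Cytokines and chemokines had 3 and 2 of 12, with the death ligand TNFSF10 at -1.71. Metallothioneins had 0 and 1 of 6, clock genes 1 and 1 of 19, HOX genes 4 and 1 of 19, and ion channels 10 and 4 of 35. LINC genes had 19 and 11 of 151 and antisense genes 38 and 26 of 372. Without si-NT replicate 2 the higher genes numbered 3 among ion channels, 1 among cholesterol genes, 1 among cilium genes, 4 among LINC genes and 6 among antisense genes, and without si-NT replicate 1 they numbered 6, 3, 1, 10 and 19. On the ERCC scale the counts of higher and lower genes were 0 and 1 for cytokines and 0 and 4 for NRF2 genes. They were 0 and 0 for endoplasmic reticulum folding, cholesterol and clock genes, and 0 and 2 for NOTCH. Fatty acid synthesis had 0 and 3, HOX genes and metallothioneins 0 and 1 each, and cilium genes 1 and 0. Growth factor genes had 1 and 1, MAPK genes 1 and 2 and ion channels 1 and 3. LINC genes had 1 and 7 and antisense genes 3 and 13. Basal epithelium markers had 0 and 2 of 5, neuroendocrine markers 1 and 0 of 5, and 0 immune or endothelial markers passed the filter on low values.

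Called genes that lay near each other moved the same way. Among the called genes, 17 pairs had gene bodies at most 100 kb apart on GRCh37, and all 17 moved in the same direction, 11 up and 6 down. Of 2133 such pairs among genes called without a fold limit, 66.3% did. The 17 pairs held 28 genes, so some pairs share a gene and are not separate cases. Reads may also be shared among the UGT2B genes and among the histone genes in them. MAB21L4 lay 5546 bases from AGXT (-1.65), and TM4SF1 35369 bases from TM4SF18-AS1 (-2.14). ZC3H12A (2.05), an RNase of inflammatory mRNAs, lay with its divergent transcript ZC3H12A-DT (1.86) and with MEAF6 (1.93), a histone acetyltransferase subunit, in 1 cluster on chromosome 1. H2BC4, H2AC6 and H3C4 lay in the histone cluster of chromosome 6, and BCL3 (1.76) lay 49027 bases from BCAM (2.51). SOCS2 overlaps SOCS2-AS1, and GASK1B overlaps GASK1B-AS1. These 2 pairs lie on opposite strands. The library kit was stranded, but the strand setting of the counting is not given in the sources used here. How reads were split between the overlapping genes is therefore uncertain.

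The promoters of the down-regulated genes held few CpG dinucleotides. RefSeq promoters on GRCh38.p14, from 250 bases before to 50 after the start, were matched by symbol for 71 of the 114 up-regulated genes, 44 of the 66 down-regulated genes and 10480 of the genes tested. The median number of CpG was 4 in the down-regulated set, 23 in the up-regulated set and 27 over all. At least 10 CpG were found in 29.5% of the down-regulated promoters, in 74.6% of the up-regulated ones, in 89.4% of all and in 97.5% of those of the 197 matched lower cell cycle genes. The table gives 1 start per gene, and in 6 of the 44 down-regulated, 8 of the 71 up-regulated and 891 of 10479 windows with a gene position this start lay more than 1000 bases from the 5′ end of the RefSeq gene. That of VAV3 lay inside its gene. Without such windows, a choice made after seeing the data, at least 10 CpG were found in 31.6%, 76.2% and 91.1%. Promoters with few CpG are common among genes expressed in few tissues.

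**Figure D4:**
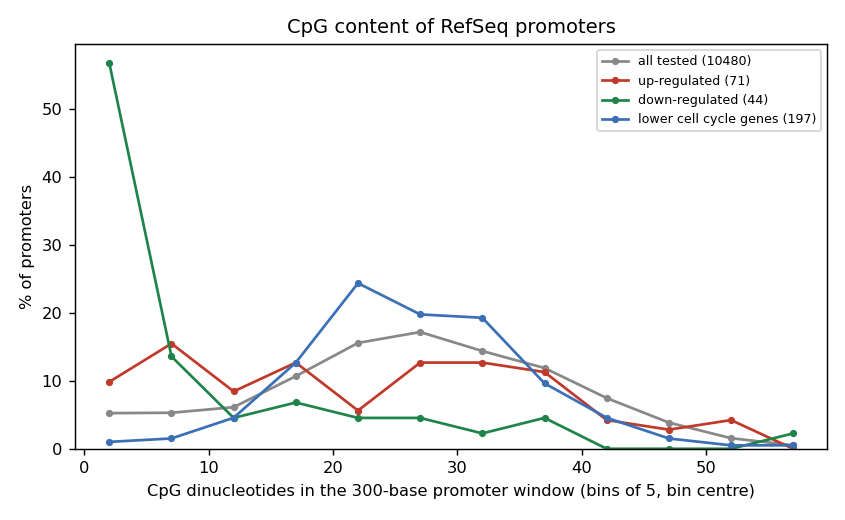
Lines give the percentage of promoters by number of CpG dinucleotides in the 300-base window, in bins of 5, for 10480 promoters of all genes tested, 71 of up-regulated, 44 of down-regulated and 197 of lower cell cycle genes. Most down-regulated promoters lie in the lowest bins, at a median of 4 CpG, the up-regulated ones are spread widely around 23, and the others centre near 27.

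The stretches below, each the 250 bases before a RefSeq start on GRCh38.p14 and written 5′ to 3′ on the strand of the gene, show this contrast. SAT1 (chrX:23782923-23783172, strand +) has 25 CpG, all in capitals, and the stretch of UGT2B15 has 0.
SAT1: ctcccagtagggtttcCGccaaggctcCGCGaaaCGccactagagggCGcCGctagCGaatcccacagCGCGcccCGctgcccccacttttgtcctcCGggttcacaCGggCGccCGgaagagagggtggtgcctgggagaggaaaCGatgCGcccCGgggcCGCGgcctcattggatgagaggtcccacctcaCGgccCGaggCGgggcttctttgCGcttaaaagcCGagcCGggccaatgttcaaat
MAB21L4 (chr2:240896157-240896406, strand -) is shown for its TGANTCA match, the letters bound by AP-1, before a start that lies 683 bases inside the RefSeq gene, and UGT2B15 (chr4:68670653-68670902, strand -), which has 0 CpG, for its TGTTTAC match, the letters bound by forkhead factors. Matches are in capitals.
MAB21L4: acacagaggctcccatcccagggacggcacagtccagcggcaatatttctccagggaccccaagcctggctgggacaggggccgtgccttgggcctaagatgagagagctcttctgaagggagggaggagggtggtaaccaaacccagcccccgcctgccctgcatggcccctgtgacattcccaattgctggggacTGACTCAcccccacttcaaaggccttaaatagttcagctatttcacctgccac
UGT2B15: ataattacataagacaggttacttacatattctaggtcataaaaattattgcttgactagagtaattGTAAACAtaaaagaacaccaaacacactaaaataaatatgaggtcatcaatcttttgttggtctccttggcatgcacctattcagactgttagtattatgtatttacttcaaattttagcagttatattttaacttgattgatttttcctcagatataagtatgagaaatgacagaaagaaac
H2AC6 (chr6:26123922-26124171, strand +) is shown for the TATAAA it holds before the start, in capitals, in a promoter whose window shares 255 bases with that of the divergent H2BC4. NEU1 (chr6:31862822-31863071, strand -) is shown for the E-box CACGTG, in capitals, the letters bound by TFEB and MYC.
H2AC6: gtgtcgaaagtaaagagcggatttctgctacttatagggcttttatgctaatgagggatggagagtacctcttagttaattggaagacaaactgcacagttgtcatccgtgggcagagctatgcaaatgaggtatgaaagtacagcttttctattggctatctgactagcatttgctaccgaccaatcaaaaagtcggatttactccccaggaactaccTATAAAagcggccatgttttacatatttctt
NEU1: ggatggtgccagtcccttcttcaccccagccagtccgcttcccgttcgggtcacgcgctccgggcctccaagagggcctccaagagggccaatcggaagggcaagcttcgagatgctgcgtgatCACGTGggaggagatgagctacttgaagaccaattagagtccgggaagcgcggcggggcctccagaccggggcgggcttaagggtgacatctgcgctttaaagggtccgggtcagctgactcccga

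Each motif was searched on both strands of the 300-base windows, and none of the motifs below contains another. TGANTCA was found in 13.6% of the down-regulated promoters (6 of 44) and 4.05% of all, and TATAAA in 22.7% (10 of 44) and 5.41%. TGTTTAC was found in 6.82% of them, which is 3 promoters, and in 2.35% of all. GGGCGG, the letters bound by SP factors, was found in 29.5% and 70.7%. Among the up-regulated promoters TATAAA was found in 12.7% and CACGTG in 2.82%, against 10.5% of all for the latter. CACGTG was found in 7 of the 20 matched promoters of the higher lysosome genes (35.0%) and in 9 of the 36 of all lysosome genes tested (25.0%). Lower cell cycle genes held CCAAT, bound by NF-Y, in 61.9% and TTTGAA, the letters of the cell cycle homology region, in 38.1%, against 37.2% and 9.08% of all. The same letters were found in 50.0% and 25.0% of the down-regulated promoters, none of them of genes in the cell cycle lists. These are counts of letters in 1 window and do not show binding. They were not corrected for base composition, and the down-regulated windows held few CpG (median 4, against 27 over all).

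Both siRNAs were compared with the same si-NT libraries in a fit with 6 groups. Past the limit with each siRNA alone were 75 up-regulated and 46 down-regulated genes, and all 114 and all 66 had the same sign with both. The libraries of both siRNAs entered the calls, so this agreement is a description. Called with siRNA 2 were 94 of the 114 and 53 of the 66, and with siRNA 3 92 and 58. Tested directly against each other, the siRNAs differed at an adjusted p under 0.05 in 54 genes (0.331%), of which 29 were higher with siRNA 3 and 25 lower. Of the 114 up-regulated genes 0 differed so, and 20 had an unadjusted p under 0.05. Of the 66 down-regulated genes 1 differed so, DNASE2B, and 17 had an unadjusted p under 0.05. DNASE2B changed by -1.93 with siRNA 2 and by -1.12 with siRNA 3, and its difference passed in 1 of 10 alternatives. Over all genes 13.3% had an unadjusted p under 0.05. The count of 54 fell to between 3 and 24 with 1 library left out, to 10 on the ERCC scale and to 25 with the 144 h libraries alone.

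Some genes changed differently with the 2 siRNAs. GLO1, a detoxifying enzyme, was at 184 and 203 TPM in si-NT cells, at 54.6 and 63.7 TPM with siRNA 2 and at 235 and 243 TPM with siRNA 3 (difference 2.00 on the log2 scale, adjusted p = 0.00023). RAB5C, a GTPase of early endosomes, was at 152 and 160 TPM, at 67.4 and 73.5 TPM with siRNA 2 and at 157 and 164 TPM with siRNA 3. RPN1, an oligosaccharyltransferase subunit, was at 174 and 183 TPM, at 82.7 and 86.7 TPM with siRNA 2 and at 159 and 165 TPM with siRNA 3. In these genes the siRNA 2 libraries were below si-NT. With siRNA 3 GLO1 was above both si-NT libraries, RPN1 below both, and RAB5C overlapped them. SNORD116-6 and SCARNA24 were listed at 0 in the si-NT and siRNA 3 libraries and at 19.3 and 25.1 TPM and at 3.41 and 3.69 TPM with siRNA 2. Both are small RNAs, so their values are uncertain for the reasons given above for such RNAs. In 10 alternatives of this fit the differences of GLO1, RAB5C and RPN1 had an adjusted p under 0.05 in 9, the exception being the ERCC scale. Of the 8 in which they were tested, SNORD116-6 had it in 8 and SCARNA24 in 7.

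Of 26 p53 target genes, 4 differed between the siRNAs, against 0.331% of all genes. With both together, 0 were higher and 2 lower, and the list's median was -0.36 with siRNA 2 and near 0 with siRNA 3, and 20 of the 26 were higher with siRNA 3 than with siRNA 2, against 33.3% of all genes tested. CDKN1A, which encodes the cell cycle inhibitor p21, was at 73.4 and 70.7 TPM in si-NT cells, at 47.2 and 45.5 TPM with siRNA 2 and at 111 and 145 TPM with siRNA 3. The difference was 1.43 on the log2 scale (standard error 0.15, adjusted p = 0.00716), with siRNA 2 below and siRNA 3 above both si-NT libraries. DDB2, AEN and FDXR also differed, by 0.91, 0.71 and 0.66 (adjusted p = 0.0368, 0.0367 and 0.0484), and were lower with siRNA 2. These calls depended on the setting: in the 10 alternatives CDKN1A had an adjusted p under 0.05 in 6, DDB2 and AEN in 1 and FDXR in 0. CDKN1A lost it on the ERCC scale and without siRNA 2 replicate 1, siRNA 2 replicate 2 or siRNA 3 replicate 2. Outside this list, in the GTPase-activating protein gene ARHGAP29 both siRNAs gave a rise, of 1.04 and 1.95, and its difference passed in 1 of the 10.

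The 2 replicates gave the same picture for the called genes. The mean of the 2 depleted libraries of a replicate number minus the si-NT library of that number had the same sign in both replicates for all 114 and all 66 genes, and for 77.4% of all genes tested. Past 1.5 in both replicates were 80 and 47 genes, and past 1 were 111 and 64. Since the replicates entered the calls, this is a description. SOCS2 differed by 3.42 and 3.44, MAB21L4 by -4.89 and -4.28 and SAT1 by 2.57 and 2.74. Without si-NT replicate 1, 100 of the 114 and 49 of the 66 genes were still called at the limit, and without si-NT replicate 2 79 and 49 were.

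Most of these genes had moved in the same direction at 72 h. Up-regulated genes changed by a median of 0.74 at 72 h and of 1.81 at 144 h (log2), with 107 of 114 of the same sign, 32 at an adjusted p under 0.05 and 4 past the limit at 72 h. Down-regulated genes had medians of -1.19 and -1.98, with 62 of 66 of the same sign, 30 at an adjusted p under 0.05 and 15 past the limit. The genes were chosen by their change at 144 h, so the larger value there is a description. Tested directly, the change at 144 h differed from that at 72 h in 3 genes (0.0184%) at an adjusted p under 0.05 and in 1943 at an unadjusted p under 0.05. NBL1 changed by 0.73 at 72 h and by 3.22 at 144 h (difference 2.49, adjusted p = 0.0145). MEAF6 was at 68.8 and 65.8 TPM in si-NT cells at 144 h and at 259, 260, 265 and 250 TPM in depleted cells, a change of 1.93 against 0.91 at 72 h (difference 1.02, adjusted p = 0.00657). SNORD67 changed by 3.73 at 72 h and by -3.62 at 144 h, where it was listed at 0 in all depleted libraries.

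**Figure D5:**
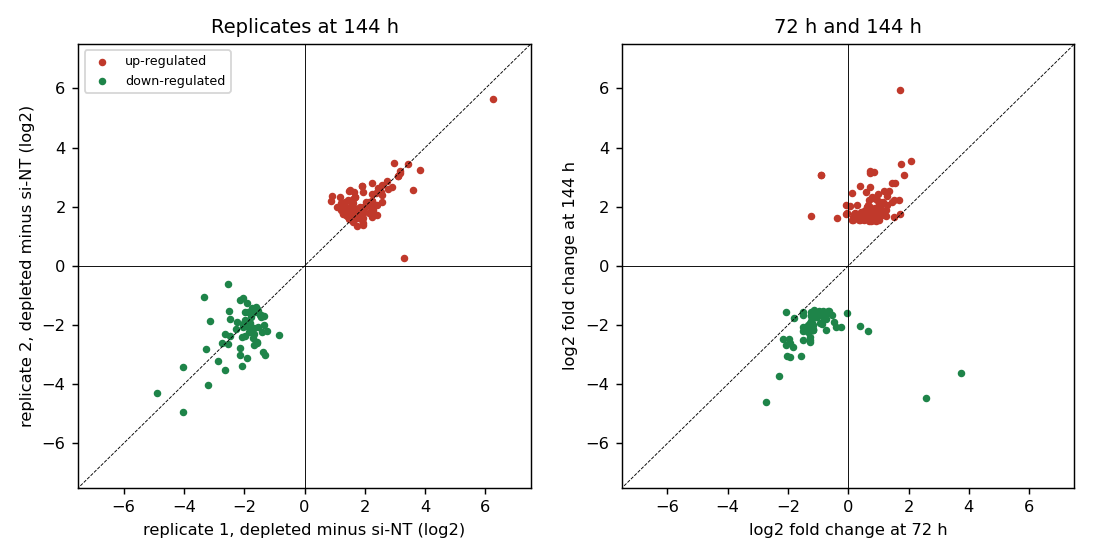
Each point is an up-regulated (red) or down-regulated (green) gene; the left panel sets the log2 difference of replicate 1 against that of replicate 2 at 144 h, and the right panel the log2 fold change at 72 h against that at 144 h, with dashed lines of equality. All points have the same sign in both replicates, and most lie beyond the line of equality on the side of 144 h, with SNORD67 at 3.73 and -3.62.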

How the data were processed

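RNA-seq of LNCaP cells was analysed from the deposited TPM. The authors added ERCC spike-ins to total RNA and prepared libraries from polyadenylated RNA with a stranded kit. They mapped with STAR (build hg19, or GRCh37), used featureCounts over GENCODE genes and derived TPM. Their methods state that read counts were normalised with the spike-ins, whereas the main fit here used the deposited TPM without rescaling to them. The strand setting of the counting is not given in the sources used here. The table holds 63568 genes and 92 spike-ins, and TPM keep no read depth, so counting error is unknown and no count model was used.

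A gene was tested if it reached 1 TPM in 2 of the 12 libraries or more, which left 16337, fitted as log2(TPM + 1) with limma 3.58.1 in R 4.3.3 (lmFit, eBayes with trend) in 4 groups that share 1 spread. On this scale the changes of weakly expressed genes come out too small. Adjusted p-values follow Benjamini and Hochberg. The study's methods name a count-based test within each time point, but counts were not used here. Because 4 against 2 libraries cannot give a 2-sided exact rank-sum p below 0.133, no such test is reported. The siRNAs were compared in a fit with 6 groups, and the procedure was tested on simulated data. Gene symbols and positions were read from GENCODE 44 as lifted to GRCh37, and promoters from RefSeq.

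The members and the 54 gene lists were chosen with earlier results of these data known. Named genes are SMARCA4, the 12 largest rises and 12 largest falls with a symbol and every depleted library beyond both si-NT libraries, outside the cell cycle lists, up to 4 genes of smallest p per list in its majority direction and 2 in the other, 5 genes that differ between the siRNAs, and cell type markers. Some are given by counts alone, and other genes named, such as those of neighbour pairs, were chosen after their values were seen. Alternatives tried were scaling to ERCC or by median-of-ratios factors, quantile normalisation, 0.1 as pseudocount, no filter or a mean of 5 TPM or more, a block on the replicate number, eBayes with no trend, only the 144 h libraries, 6 groups, si-NT of both times combined, other limits, and each 144 h library left out. Results for some genes and 1 list are not reported here.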

Additional observations from a re-analysis of the deposited data

Results flagged for a closer look

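Among 274 named genes tested for a library far from the other 3 of the BRG1 depleted group, 8 had one by Dixon's test, and chance gives about 1 in 20. The outlying value was that of siRNA 3 replicate 2 for CDC6 (12.67 TPM), ITGA6 (8.37 TPM), EGFR (5.17 TPM), SOCS4 (7.56 TPM) and HSPB8 (12.23 TPM). It was that of siRNA 3 replicate 1 for WLS (18.2 TPM) and NFKBIA (43.1 TPM), and that of siRNA 2 replicate 2 for NOTCH3 (19.87 TPM).

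The siRNAs differed at an adjusted p under 0.05 (limma, siRNA 3 minus siRNA 2, log2 scale) in RAB5C (1.18), RPN1 (0.93), GLO1 (2.00), CDKN1A (1.43), DDB2 (0.91), AEN (0.71), FDXR (0.66), ARHGAP29 (0.91), DNASE2B (0.81), SNORD116-6 (-4.52) and SCARNA24 (-2.19). The change at 144 h differed from that at 72 h by the same kind of test in NBL1 (2.49), MEAF6 (1.02) and SNORD67 (-7.35).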

How the results depend on the processing

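The counts past the limit of 1.5 (114 up, 66 down) moved most with a pseudocount of 0.1, to 258 and 181 (181 outside the cell cycle lists), and on the ERCC scale, to 56 and 168 (143 outside), where without a fold limit 138 genes were higher and 614 lower. A mean TPM of at least 5 gave 43 down, all 43 outside the cell cycle lists. A log2 limit of 1 gave 426 up and 254 down (206 outside), and a linear limit of 1.5 gave 1332 and 1020 (805 outside). With 1 library left out, 90 to 145 genes were up and 58 to 74 down, in or outside the lists, and without a fold limit 753 to 2124 were higher and 394 to 1694 lower; the lowest counts, 753 and 394, came without si-NT replicate 2, and 1074 and 685 without replicate 1. For both siRNAs the counts of 75 and 46 became 173 and 110 with a pseudocount of 0.1 and 34 and 84 on the ERCC scale. The 54 genes that differ between the siRNAs became 10 on the ERCC scale, 25 with the 144 h libraries alone and 3 to 24 with 1 library left out. The count of 3 genes that differ between the times was 3 in each of the alternatives run for it (pseudocount, ERCC scale and block). SMARCA4 was called in all 17 alternative fits.

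The replicate numbers did not pair the samples (correlations of deviations -0.06, 0.06 and 0.06). With the replicate number as a block, 66 genes were down, 2067 higher and 1625 lower without a fold limit, and 23 differed between the siRNAs.

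Of 263 named genes with an adjusted p under 0.05, 137 lost it on the ERCC scale, 69 without si-NT replicate 1 and 101 without si-NT replicate 2, and at most 29 in any other alternative. On the ERCC scale GRHL2 (-0.005), IFT20 (-0.018) and SMARCD3 (-0.011) turned from higher to about 0. The cause of these moves was not tested, beyond the smaller number of libraries where 1 was left out. A left-out si-NT library leaves 1 control, assumed to vary like the other groups.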
